A study of Homo sapiens with 24 samples.

Results

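The genes described here encode the proteins of the cytosolic ribosome. They were chosen by a pattern of names in the count table: RPL or RPS, a number, and an optional letter A, X, Y or L with optional digits. RPSA, RPLP0, RPLP1 and RPLP2 were added. Pseudogenes, the S6 kinases, 3 sex-linked RPS4 genes and rows with under 240 counts over all libraries were left out. The pattern does not match RPL36AL, which is therefore not a member. This gave 83 genes, 52 of the large and 31 of the small subunit, among 26364 genes in the table. All 83 passed the filter on low counts, which left 15757 genes for testing.

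The libraries came from N/TERT-1 cells (nTERT-1 in the labels), an immortalised line of human keratinocytes. The genotypes were KAT2A_KD, KAT2B_KD, KAT2AB_KD and NT, each at the Subconfluent, Confluent and Differentiated stages, with 2 libraries in each of the 12 groups. NT was taken as the control, and the sample table puts the Differentiated stage at day 4. All groups share the cell line, and the labels say neither how the knockdowns were made nor what NT stands for. KAT2A and KAT2B are paralogous histone acetyltransferases of the SAGA and ATAC coactivator complexes, and the series title names keratinocyte stemness and differentiation as the subject.

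A cytosolic ribosome holds 1 copy of most ribosomal proteins, and cells make these proteins in matched amounts. In vertebrates most of their mRNAs start with a C followed by a run of pyrimidines, the 5′ terminal oligopyrimidine (TOP) motif, through which mTORC1 and LARP1 set their translation and stability together. A few ribosomal proteins have a paralog encoded by a second gene, such as RPL22L1 for RPL22 and RPS27L for RPS27. In skin, ribosomal protein and ribosome biogenesis genes are best known from proliferating basal keratinocytes.

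The start sequences of some genes named in the results are shown first. Whether they bear on the changes was not tested. RefSeq (GRCh38.p14) listed starts for 66 of the 83 genes. A C followed by 4 pyrimidines (C or T) stood at an annotated start in 47 of the 66 (71.2%), against 732 of 10987 other tested genes (6.66%). Each line gives 20 bases before the annotated start and 10 from it, 5′ to 3′ on the gene's strand, and capitals mark the pyrimidine run where it opens with such a motif. RPS19, RPS27, RPL11 and RPL22 are canonical members, and RPL24, RPS6 and RPS26 are members that fell relative to the others on differentiation.
RPS19, chr19:41860235-41860264, plus strand: gcccgggaaaccccgtcgttCCCTTTCCCC
RPL11, chr1:23691786-23691815, plus strand: tcggccggaagctccgctttCTCTTCCTgc
RPS27, chr1:153990742-153990771, plus strand: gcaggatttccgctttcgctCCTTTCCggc
RPL22, chr1:6199586-6199615, minus strand: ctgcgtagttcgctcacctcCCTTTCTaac
RPL26, chr17:8383184-8383213, minus strand: accggaagcagcgtgtagttCTCTTCCCTT
RPL24, chr3:101686709-101686738, minus strand: gtctcttcccatgattctctCTTTCTTTTC
RPS6, chr9:19380227-19380256, minus strand: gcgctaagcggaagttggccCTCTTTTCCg
RPS26, chr12:56041898-56041927, plus strand: gctgggagacacataacctcgattttcttc
The paralogs are shown for comparison with their canonical partners.
RPL22L1, chr3:170870186-170870215, minus strand: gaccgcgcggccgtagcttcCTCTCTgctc
RPS27L, chr15:63157468-63157497, minus strand: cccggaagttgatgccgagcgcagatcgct
RPL26L1, chr5:172958709-172958738, plus strand: caggcagtcttccaggggtcggcgaacgaa
RPL7L1, chr6:42879596-42879625, plus strand: cgcgccggaagtgcggcgccgtagctagga
RPL22L1 had the motif at its listed start, and RPS27L, RPL26L1 and RPL7L1 did not. RPS26, a canonical member, did not have it either at the listed start. The letters CCGGAAG, on either strand of the 300 bases around the start, were found in 23 of the 66 genes (34.8%) and in 20.7% of the other genes.

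Levels spanned a wide range. Values are in CPM, counts scaled to library size after TMM normalization. Per kilobase of transcript, RPS18 (small subunit) had the highest mean over all libraries at 16964 CPM per kb, and the median member had 1020 CPM per kb. The paralogs RPS27L with 8.46 and RPL7L1 with 10.8 CPM per kb were lowest, followed by RPL3L with 36.9, RPL26L1 with 56.4 and RPL22L1 with 64.4 CPM per kb. Their order depended on the transcript lengths used, such as 6434 nt for RPS27L and 708.5 nt for RPL26L1. By mean CPM without lengths, RPL26L1 (39.9) and RPL7L1 (40.6) were lowest, followed by RPS27L (54.5), RPL3L (80.6) and RPL22L1 (86.8). RPS18 alone held between 9.45% and 15.3% of the members' counts. Many of these genes have processed pseudogenes, and 19 of the 83 had another row whose counts stayed in a near-constant ratio to theirs over the 24 libraries (SD of the log2 ratio under 0.05). Examples were RPL21 with RPL21P28 (ratios of at least 0.9998), RPSA with RPSAP58 (0.922 to 0.937), RPLP0 with RPLP0P2 (0.751 to 0.785) and RPS26 with RPS26P11 (0.859 to 0.893). RPS18 was also among them, with RPS18P9 (0.143 to 0.152). How reads were split between such rows is not given, so the order of members by level is uncertain. RPL10L stayed near one ratio to RPL10 and RPL39L near one ratio to RPL39, so the counts of these genes are uncertain and their separate levels cannot be told apart here.

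Library totals ran from 8010178 to 16054003 counts, and the labels do not say whether the 2 libraries of a group are separate cultures, so p-values measure a spread that may be technical. The knocked-down genes were low in the libraries labelled for them. KAT2A had 3.46 to 10.4 CPM in the KAT2A_KD and KAT2AB_KD libraries and 30.1 to 32.7 CPM in the NT libraries at the Subconfluent stage, 1.67 to 7.35 CPM and 36.4 to 38.5 CPM at the Confluent stage, and 1.98 to 6.84 CPM and 9.99 to 12.8 CPM at the Differentiated stage. KAT2B had 0.152 to 1.92 CPM in the KAT2B_KD and KAT2AB_KD libraries and 4.76 to 5.58 CPM in the NT libraries at the Subconfluent stage, 0.668 to 2.96 CPM and 4.06 to 4.32 CPM at the Confluent stage, and 4.58 to 18.9 CPM and 40.3 to 44.8 CPM at the Differentiated stage. The summed level of 10 keratinocyte markers ran from 15966 to 17932 CPM at the Subconfluent, 20461 to 30516 CPM at the Confluent and 43238 to 77723 CPM at the Differentiated stage. Of 8 fibroblast markers, COL1A1 was measured at 31.0 to 51.0 CPM in Differentiated libraries and 1.07 to 6.18 CPM in Confluent ones, while DCN, LUM, COL3A1 and THY1 were at or near 0. The 8 melanocyte markers summed to at most 17.7 CPM in any library, with TYR and DCT at 0 in all Confluent and Differentiated libraries.

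The ribosomal protein mRNAs moved as a block between libraries. Their sum took between 46917 CPM (KAT2AB_KD Differentiated library 2) and 199099 CPM (KAT2B_KD Differentiated library 1) of each library. The median correlation between any 2 members over the 24 libraries was Pearson r = 0.86, given as a description, since the libraries share their scaling and their groups. Within groups the spread was wide. The summed level was 199099 and 108615 CPM in the 2 KAT2B_KD Differentiated libraries. It was 92477 and 46917 CPM in the 2 KAT2AB_KD Differentiated libraries, and 102046 and 131331 CPM in the 2 NT Differentiated libraries. The lower KAT2AB_KD library lay below every other library, and the higher one lay below both NT libraries by less than the distance between the KAT2AB_KD libraries.

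**Figure D1:**
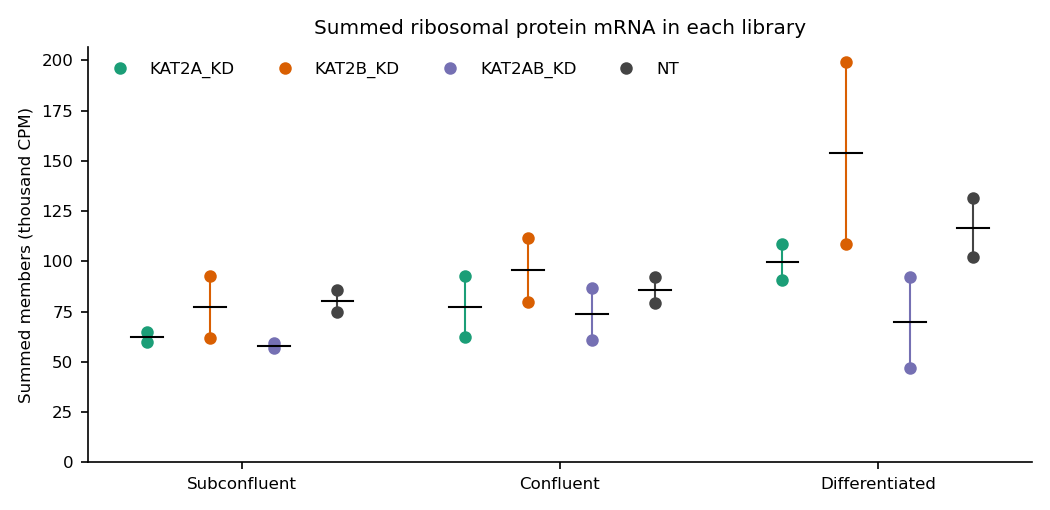
Summed level of the 83 ribosomal protein genes in each library (y axis, in units of 1000 CPM) by stage (x axis) and genotype (colour). Points are libraries, the vertical lines join the 2 libraries of a group and the horizontal bars are their means. The KAT2B_KD and KAT2AB_KD libraries of the Differentiated stage lie furthest apart within their groups.

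Between the 2 libraries of a group, the median member differed by between 0.07 and 0.98 on the log2 scale, and by over 0.3 in 7 of the 12 groups. In KAT2AB_KD Differentiated the median difference was 0.98 (library 1 minus library 2), with 82 of 83 members higher in library 1. In KAT2B_KD Differentiated it was 0.89, also with 82 of 83 members higher in library 1. Over all genes tested the median difference stayed within 0.03 in each group. Other genes with transcripts under 1000 nt (825 genes) shifted to the same side as the members in all 12 groups, by at most 0.59, and so did the mitochondrial ribosomal protein genes. The part of these shifts in the results below was not tested. Relative to the members' own mean in each library, the median SD of a member within groups was 0.11 on the log2 scale, against 0.39 with TMM scaling.

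**Figure D2:**
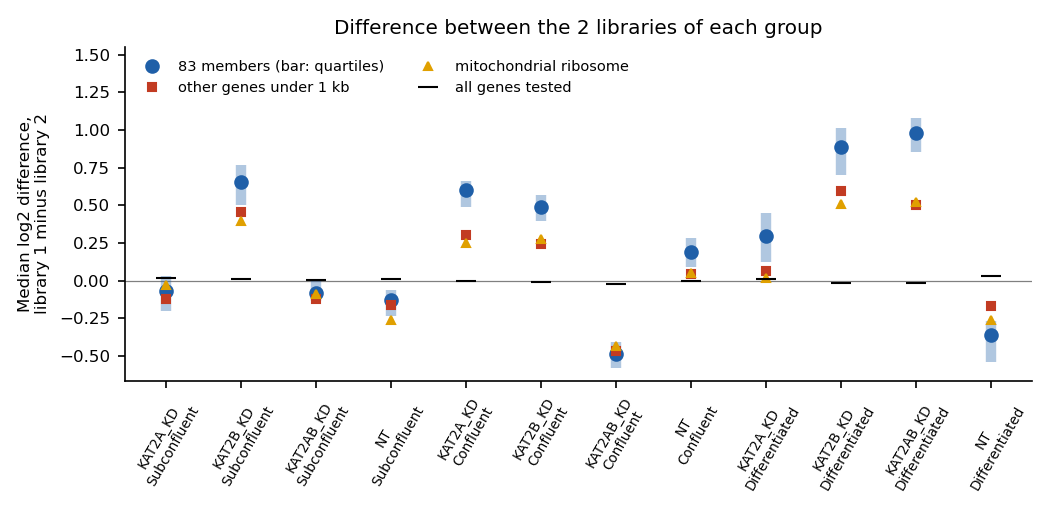
Difference between the 2 libraries of each group (y axis, median log2 difference, library 1 minus library 2) for the 83 members (blue, with quartiles), other genes under 1 kb (red), mitochondrial ribosomal protein genes (yellow) and all genes tested (black dash). The 4 sets lie together near 0 in KAT2A_KD and KAT2AB_KD Subconfluent, and the members lie furthest from 0 in KAT2AB_KD Differentiated, at 0.98.

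The comparison of the Differentiated with the Confluent stage asks how the genes change when the cells differentiate. In 3 genotypes more members rose than fell, and in KAT2AB_KD more fell than rose. The 2 Differentiated libraries of KAT2AB_KD lay on opposite sides of its Confluent ones. The members summed to 92477 CPM in Differentiated library 1, above both Confluent libraries (60900 and 86944 CPM). In Differentiated library 2 they summed to 46917 CPM, below both, so the direction in KAT2AB_KD rests on that library. By edgeR's quasi-likelihood test, with p-values adjusted over all genes tested (Benjamini-Hochberg) and a threshold of 0.05, 7 members rose and 2 fell in KAT2A_KD, where 43.1% of all genes passed (21.4% higher and 21.7% lower). In KAT2B_KD 23 rose and 1 fell, where 39.6% of all genes passed (19.3% higher and 20.3% lower). In KAT2AB_KD 1 rose and 4 fell, where 46.2% of all genes passed (22.6% higher and 23.6% lower). In NT 13 rose and 3 fell, where 50.4% of all genes passed (24.3% higher and 26.1% lower). The 23 higher calls in KAT2B_KD were a larger share of the 83 members than the background for that direction, and the other counts were smaller shares; these shares were not tested. Their median log2 fold changes were 0.29 in KAT2A_KD, 0.60 in KAT2B_KD, -0.16 in KAT2AB_KD and 0.32 in NT, beside medians over all genes of -0.01, 0.00, -0.02 and -0.01. These directions depended on scaling. In bulk RNA, fewer cells of a type and less RNA per cell cannot be told apart. With library totals alone, which moves the median of all genes by -0.44, -0.33, -0.36 and -0.42 in these genotypes, the splits of higher and lower calls were 4 and 10 in KAT2A_KD, 16 and 1 in KAT2B_KD, 0 and 37 in KAT2AB_KD, and 3 and 7 in NT. Under that scaling the shares of all genes higher and lower were 12.8% and 33.2% in KAT2A_KD, 11.6% and 29.2% in KAT2B_KD, 14.6% and 32.5% in KAT2AB_KD, and 14.9% and 35.9% in NT.
The subunits were close to each other, with medians of 0.34 for the large and 0.20 for the small subunit in KAT2A_KD, 0.60 and 0.58 in KAT2B_KD, -0.12 and -0.20 in KAT2AB_KD, and 0.35 and 0.28 in NT. In NT the members with a TOP motif at a listed start had a median of 0.38 and those without it 0.13, beside -0.06 and -0.02 in other genes with and without it. The members without it include the paralogs RPS27L (-0.94), RPL7L1 (-0.74) and RPL26L1 (-0.54), and RPS26 (-0.45). The paralog RPL22L1 (-1.65) had it. The difference between these medians was not tested.

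**Figure D3:**
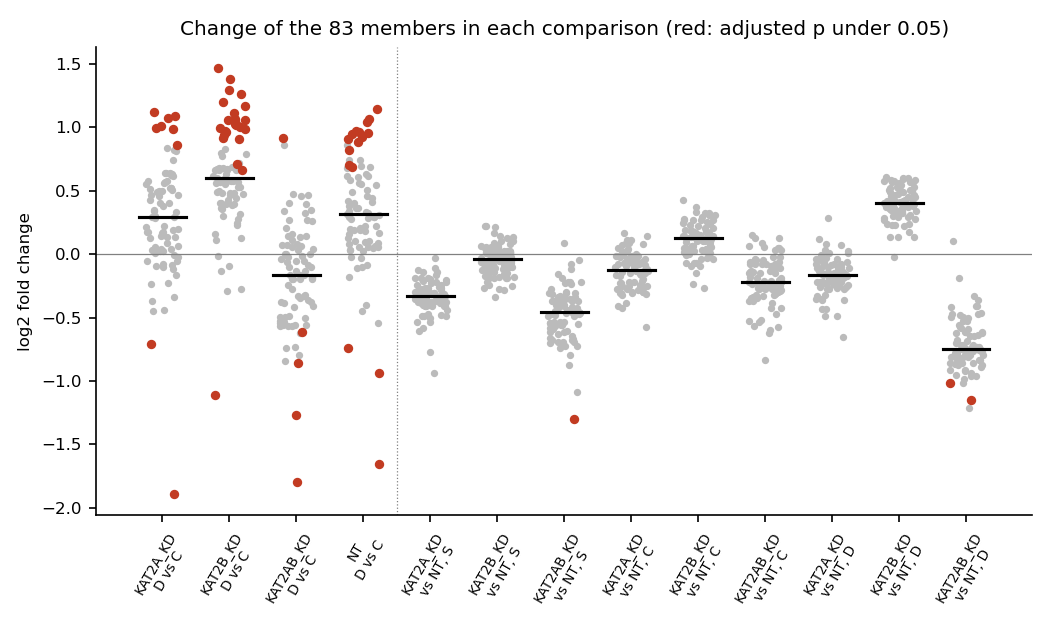
Log2 fold change (y axis) of each of the 83 members in each comparison (x axis; D, Differentiated; C, Confluent; S, Subconfluent). Points are genes, red where the edgeR adjusted p was under 0.05, and black bars are medians. The medians run from -0.16 to 0.60 on differentiation, and from -0.74 to 0.40 between knockdowns and NT.

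RPS19, a small-subunit protein needed to mature the 18S rRNA, had among the highest fold changes. It had 2192 and 2579 CPM in NT Differentiated libraries, against 1132 and 1025 CPM in NT Confluent libraries. Both Differentiated libraries lay above both Confluent ones. The log2 fold change was 1.15 ± 0.34 (SE, edgeR adjusted p = 0.00831), and without NT Confluent library 2 the adjusted p was 0.0613. RPS19 also rose in KAT2A_KD (1.01 ± 0.34, adjusted p = 0.0203) and KAT2B_KD (1.26 ± 0.34, adjusted p = 0.00581). These calls were lost without KAT2A_KD Confluent library 2 (adjusted p = 0.191) or Differentiated library 1 (0.0673), and without KAT2B_KD Confluent library 2 (0.0621) or Differentiated library 1 (0.118). In KAT2AB_KD it had 2044 and 1054 CPM in Differentiated and 925 and 1320 CPM in Confluent libraries, so that the groups overlapped (0.46 ± 0.33, adjusted p = 0.271).

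RPS27, the canonical partner of RPS27L, had 1549 and 879 CPM in KAT2B_KD Differentiated libraries, against 521 and 359 CPM in KAT2B_KD Confluent libraries, with no overlap. It rose by 1.46 ± 0.35 (edgeR adjusted p = 0.00267) and stayed past the threshold with each of the 4 libraries left out in turn (highest adjusted p 0.0432). RPS27 also rose in KAT2A_KD (0.99, adjusted p = 0.0280) and NT (1.06, 0.0165), and the NT call was lost without Confluent library 2 (0.128) or Differentiated library 2 (0.154). The KAT2A_KD call was lost without Confluent library 2 (0.255) or Differentiated library 1 (0.102).

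RPL11 and RPL5 join the 5S rRNA in the particle that binds MDM2 when ribosome assembly fails. RPL11 had 544 and 562 CPM in NT Differentiated libraries, against 305 and 233 CPM in NT Confluent libraries, with no overlap. Its log2 fold change was 1.04 ± 0.26 (edgeR adjusted p = 0.00277), and it stayed past the threshold without any 1 of the 4 libraries (highest adjusted p 0.0482). RPL11 rose by 0.86 ± 0.26 in KAT2A_KD (adjusted p = 0.0125), a call lost without Confluent library 2 (0.111) or Differentiated library 1 (0.168). It rose by 1.002 ± 0.264 in KAT2B_KD (adjusted p = 0.00497), with an adjusted p of 0.0548 without Confluent library 2. In KAT2AB_KD the log2 fold change was -0.10 (adjusted p = 0.777). With library totals alone RPL11 had 0.42 in KAT2A_KD (adjusted p = 0.0852), and relative to the other members 0.54 in KAT2A_KD (0.0691) and 0.45 in KAT2B_KD (0.126). RPL5 did not pass in any genotype, with log2 fold changes of -0.05 in KAT2A_KD, 0.32 in KAT2B_KD, -0.41 in KAT2AB_KD and -0.03 in NT.

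RPL39, a small protein that lines the exit tunnel, rose in all 4 genotypes. It had 1145 and 582 CPM in KAT2AB_KD Differentiated libraries, against 369 and 546 CPM in Confluent ones, and both Differentiated values were the higher. Its log2 fold changes were 1.12 in KAT2A_KD (edgeR adjusted p = 0.0186), 1.38 in KAT2B_KD (0.00574), 0.92 in KAT2AB_KD (0.0468) and 0.97 in NT (0.0337). Each of these calls was lost without some library: the highest adjusted p with 1 library left out was 0.149 in KAT2A_KD (without Confluent library 2) and 0.112 in KAT2B_KD (without Differentiated library 1). It was 0.460 in KAT2AB_KD (without Differentiated library 1) and 0.201 in NT (without Differentiated library 2). With library totals alone RPL39 did not pass in KAT2AB_KD (adjusted p = 0.106) or NT (0.0955). RPL39L was counted in step with RPL39, and its values add no independent evidence.

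Of the stalk proteins, which recruit elongation factors, the paired acidic RPLP1 and RPLP2 had higher fold changes than RPLP0, to which they bind. RPLP2 had 968 and 1188 CPM in NT Differentiated libraries, against 591 and 517 CPM in NT Confluent libraries, with no overlap. It rose by 0.98 in KAT2A_KD (edgeR adjusted p = 0.0304), 1.20 in KAT2B_KD (0.0114) and 0.96 in NT (0.0295), and had 0.46 in KAT2AB_KD (0.307). Without single libraries the highest adjusted p was 0.214 in KAT2A_KD (without Confluent library 2), 0.233 in KAT2B_KD (without Differentiated library 1) and 0.144 in NT (without Confluent library 2). RPLP1 rose in KAT2B_KD (1.11, adjusted p = 0.0153) and NT (0.88, 0.0393), and these calls too were lost without some library (highest adjusted p 0.206 and 0.180). With library totals alone RPLP2 did not pass in KAT2A_KD (adjusted p = 0.0726) or NT (0.0750), nor RPLP1 in NT (0.110). RPLP0 passed in no genotype, with log2 fold changes from -0.50 in KAT2AB_KD to 0.39 in KAT2B_KD. The difference between RPLP0 and its partners was not tested directly.

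Most of the calls rested on single libraries. In NT the number of members called was 5, 3, 13 and 4 without Confluent library 1, Confluent library 2, Differentiated library 1 and Differentiated library 2. In KAT2A_KD it was 13, 2, 5 and 5, and in KAT2B_KD 21, 2, 3 and 41, in the same order. In KAT2AB_KD it was 7, 5, 26 and 6, and without Differentiated library 1 all 26 were lower. The libraries whose removal moved these counts most were Confluent library 2 and both Differentiated libraries of KAT2B_KD, and Differentiated library 1 of KAT2AB_KD. The shares of all genes called in these fits are not given here.

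RPL22L1 fell in all 4 genotypes. RPL22L1 is the paralog of RPL22 and is best known from lymphocyte development in mice and from cancer cells. It had 23.6 and 39.0 CPM in KAT2A_KD Differentiated libraries, against 142 and 90.3 CPM in Confluent ones. It had 70.8 and 48.1 against 145 and 111 CPM in KAT2B_KD, 29.1 and 20.5 against 78.2 and 94.4 CPM in KAT2AB_KD, and 34.6 and 63.6 against 163 and 145 CPM in NT. In each genotype both Differentiated libraries lay below both Confluent ones. The log2 fold changes were -1.89 ± 0.33 in KAT2A_KD (edgeR adjusted p = 0.000124), -1.11 ± 0.32 in KAT2B_KD (0.0102), -1.80 ± 0.33 in KAT2AB_KD (0.000186) and -1.65 ± 0.33 in NT (0.000325). With each library left out in turn the call held in KAT2A_KD, KAT2AB_KD and NT (highest adjusted p 0.0120), and in KAT2B_KD it was lost without Confluent library 1 (0.0873) or Differentiated library 2 (0.105). RPL22 itself had log2 fold changes of 0.38, 0.99, -0.20 and 0.61 in KAT2A_KD, KAT2B_KD, KAT2AB_KD and NT, and passed in KAT2B_KD (adjusted p = 0.0135), with a highest adjusted p of 0.169 with 1 library left out and 0.123 relative to the other members.

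RPL7L1, the paralog of RPL7 with a role in ribosome biogenesis, had 31.4 and 26.0 CPM in NT Differentiated and 51.0 and 44.9 CPM in NT Confluent libraries. It fell in KAT2A_KD (-0.71 ± 0.21, edgeR adjusted p = 0.00867), KAT2AB_KD (-0.62 ± 0.20, 0.0182) and NT (-0.74 ± 0.21, 0.00535), and had -0.28 ± 0.20 in KAT2B_KD (0.301). The calls were lost in KAT2A_KD without Differentiated library 2 (0.0792), in NT without Differentiated library 2 (0.0857), and in KAT2AB_KD without Confluent library 1 (0.123) or Differentiated library 1 (0.229). Relative to the other members the RPL7L1 calls were lost in KAT2A_KD (0.0929), KAT2AB_KD (0.675) and NT (0.0850). RPS27L, the paralog of RPS27, had 28.8 and 47.5 CPM in NT Differentiated and 70.6 and 75.4 CPM in NT Confluent libraries. It fell in NT (-0.94 ± 0.35, adjusted p = 0.0314), a call lost without Confluent library 1 (0.0755), Confluent library 2 (0.106) or Differentiated library 1 (0.270), and passed in no knockdown (-0.37, -0.29 and -0.56 in KAT2A_KD, KAT2B_KD and KAT2AB_KD). With library totals alone RPS27L passed in KAT2A_KD (-0.79, adjusted p = 0.0323) and KAT2AB_KD (-0.94, 0.0118) too. Relative to the other members it passed in KAT2B_KD (-0.88, 0.0142) and NT (-1.28, 0.000865). RPL26L1 passed in none with TMM scaling, with -0.45, -0.02, -0.73 and -0.54 in KAT2A_KD, KAT2B_KD, KAT2AB_KD and NT. Relative to the other members it was lower in KAT2A_KD (-0.73, adjusted p = 0.0201), KAT2B_KD (-0.61, 0.0446) and NT (-0.88, 0.00465), and had -0.55 in KAT2AB_KD (0.0748). The canonical members that fell were RPS26 (-1.27 ± 0.30, adjusted p = 0.00160) and RPS27A (-0.86 ± 0.31, 0.0289), both in KAT2AB_KD. RPS26 held without each library in turn, and RPS27A was lost without Confluent library 2 (0.244) or Differentiated library 2 (0.265).

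A ratio of 2 members within a library does not depend on how libraries are scaled, so the paralogs were also set against their partners. It still carries any shift between libraries that differs between the 2 genes. In KAT2AB_KD Differentiated libraries 1 and 2, RPL7 had 561 and 294 CPM and RPL7L1 25.8 and 35.7 CPM. Their ratio was 0.0460 and 0.121. The transcript lengths used also differed within pairs, as for RPS27L (6434 nt) and RPS27 (413 nt). The part of such shifts in the ratios was not tested. Over the 4 genotypes the count of RPL22L1 per count of RPL22 had a geometric mean of 0.133 in 8 Differentiated libraries (range 0.0669 to 0.177) and 0.554 in 8 Confluent libraries (0.421 to 0.765). The log2 difference was -2.06, and the 2-sided exact permutation test over libraries gave p = 0.000155, the smallest that this design allows (adjusted over 14 tests, 0.000725). The ratio RPS27L over RPS27 was 0.0470 in Differentiated libraries (0.0394 to 0.0573) and 0.133 in Confluent ones (0.105 to 0.192), a log2 difference of -1.51 with the same exact p and adjusted p. The ratio RPL26L1 over RPL26 was 0.0382 in Differentiated libraries (0.0318 to 0.0465) and 0.0708 in Confluent ones (0.0606 to 0.0823), a log2 difference of -0.89, again with the same exact p. In all 3 ratios every Differentiated library lay below every Confluent library, in each of the 4 genotypes. The test treats the 8 libraries of a stage as alike, although they come in pairs from 4 genotypes.

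The other paralog pairs did not separate the stages after adjustment. RPL7L1 over RPL7 averaged 0.0443 in Differentiated and 0.0676 in Confluent libraries (log2 difference -0.61, exact permutation p = 0.0340, adjusted 0.105). KAT2AB_KD Differentiated library 2, at 0.121, lay above every Confluent library, and the other 7 Differentiated libraries (0.0259 to 0.0493) lay below every Confluent library (0.0526 to 0.0965). RPL3L over RPL3 (0.0446 and 0.0444) and RPL10L over RPL10 (0.261 and 0.257) had close ratios in both stages (adjusted exact p = 0.948 and 0.591). RPL39L over RPL39 was 0.431 in Differentiated and 0.447 in Confluent libraries (adjusted exact p = 0.105). The counts of RPL10L and RPL39L could not be told apart from those of RPL10 and RPL39. These ratios therefore cannot show whether the paralogs changed. RPL3 was also the row closest to RPL3L, with counts 18.7 to 26.6 times as high, so the counts of RPL3L are uncertain too. Between the Confluent and Subconfluent stages no ratio passed, and the lowest adjusted exact p was 0.157, for RPL22L1 over RPL22 (0.554 and 0.457).

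**Figure D4:**
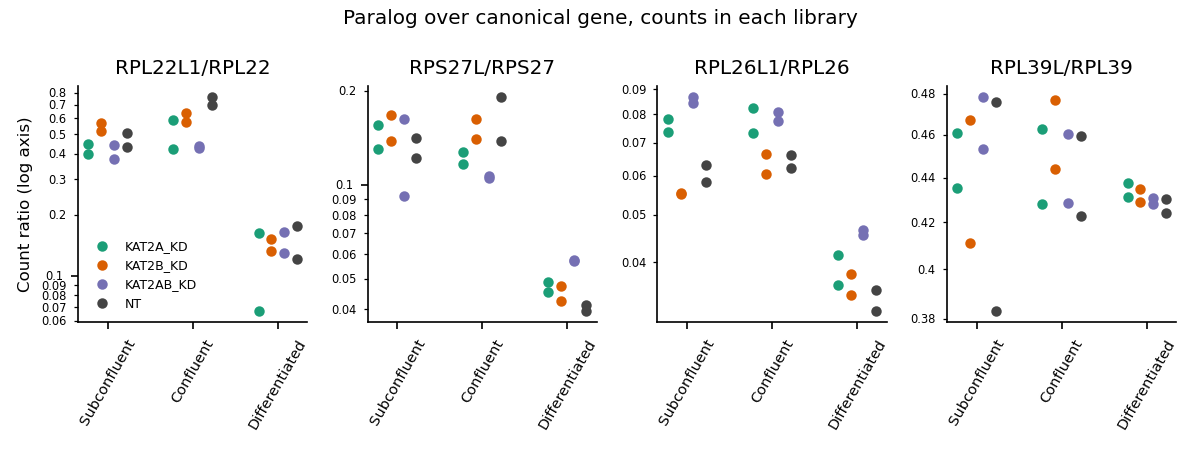
Count of a paralog divided by the count of its canonical partner in each library (y axis, log scale), by stage (x axis) and genotype (colour). RPL22L1/RPL22, RPS27L/RPS27 and RPL26L1/RPL26 are lower in every Differentiated library than in every Confluent library, and RPL39L/RPL39 overlaps between the stages.

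Because the members shifted together between libraries, their changes were also measured relative to each other, with libraries scaled to the same geometric mean of the 83 members. This scaling was chosen after seeing the data, and by its construction the members' mean change is 0, so only their order is informative. It moved the median of all genes by -0.32 in KAT2A_KD, -0.52 in KAT2B_KD, 0.26 in KAT2AB_KD and -0.31 in NT. It also takes out the spread that the members share between libraries. The shares over all genes given below are therefore not a like comparison for the member counts. In the Differentiated against the Confluent stage, 11 members then rose and 11 fell in KAT2A_KD (9.64% of all genes higher and 19.7% lower), and 13 rose and 9 fell in KAT2B_KD (6.99% and 25%). In KAT2AB_KD 11 rose and 10 fell (17.8% and 11.5%), and in NT 15 rose and 8 fell (11.8% and 24.5%). The 4 comparisons share no libraries. The same 9 members passed as higher in all 4 genotypes, among them RPS18, RPS19, RPS27, RPS28, RPL13A, RPL39, RPL39L and RPLP2. The same 4 passed as lower in all 4: RPL22L1, RPL24, RPS6 and RPS26. Of the 83 members 60 had the same sign in all 4 genotypes, and none passed in opposite directions. The shares of all genes that did the same are not given here. These counts are therefore not a result about the members in particular. RPL39 and RPL39L were counted in step and are not separate evidence among the 9.

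RPL24, a large-subunit protein that bridges the subunits, had relative log2 fold changes of -0.62 in KAT2A_KD, -0.71 in KAT2B_KD, -0.68 in KAT2AB_KD and -0.73 in NT, each with an SE of 0.14 (highest edgeR adjusted p 0.00249). RPS19 had 0.75, 0.64, 0.65 and 0.84 in the same order, each with an SE of 0.13 (highest adjusted p 0.000864). RPS6, the S6 kinase substrate, had -0.52, -0.50, -0.38 and -0.49 (highest adjusted p 0.0285), although on the TMM scale its log2 fold changes were -0.23, 0.12, -0.56 and -0.18 and none passed. RPS26 had -0.75, -0.69, -1.05 and -0.75 (highest adjusted p 0.0187), and RPL22L1 -2.11, -1.68, -1.57 and -2.00. RPS27 had 0.74, 0.87, 0.50 and 0.73 (highest adjusted p 0.0236). RPL22L1, RPL24 and RPS19 passed in all 16 fits that left out 1 library of a comparison (highest adjusted p 0.0343). RPS18 passed in 15 of the 16, RPL39 in 14, RPLP2 and RPS27 in 13, RPL39L, RPS28 and RPS6 in 10, RPS26 in 9 and RPL13A in 4. The sign of each of these genes was the same in all 16. The number of members called with 1 library left out ran from 6, in KAT2B_KD without Confluent library 2, to 20, in KAT2AB_KD without Differentiated library 1. The shares of all genes called in the fits with 1 library left out are not given here. Of the genes named here, RPS18, RPL13A and RPS26 share reads with pseudogene rows.

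**Figure D5:**
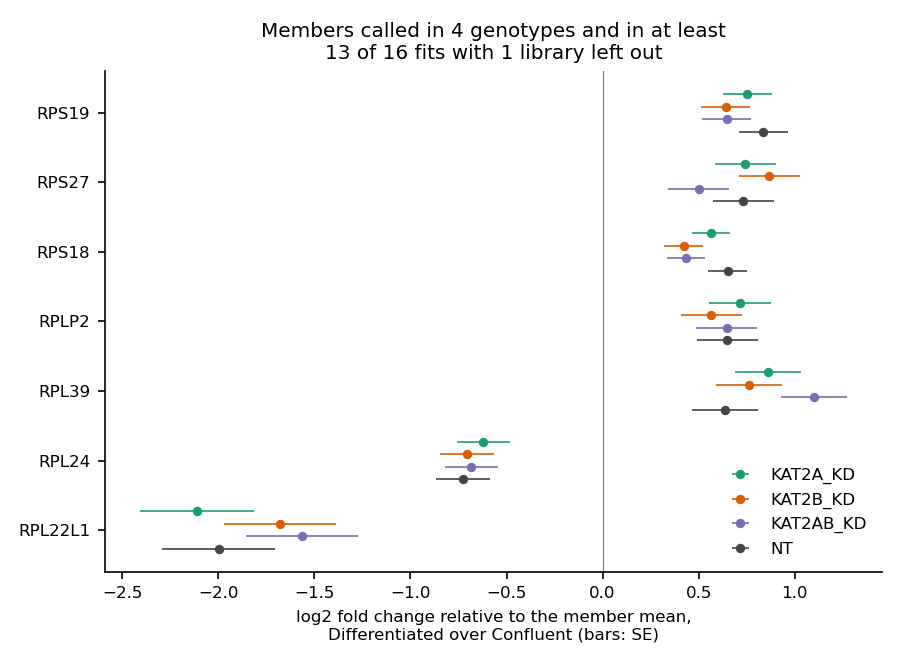
Log2 fold change of Differentiated over Confluent (x axis) relative to the mean of the 83 members, for the 7 members that passed in the same direction in all 4 genotypes and in at least 13 of the 16 fits with 1 library left out. Points are fitted values, bars are standard errors and colours are genotypes. The range is narrow for RPL24, from -0.73 to -0.62, and wider for RPL39, from 0.64 to 1.10.

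Between the Confluent and Subconfluent stages no member passed in any genotype, by edgeR or by DESeq2, nor with the members' own scaling. Of all genes 0.235%, 1.61%, 0.609% and 0.901% passed in KAT2A_KD, KAT2B_KD, KAT2AB_KD and NT. At an unadjusted p under 0.05 there were 0, 2, 0 and 0 members in the same order, where 6.24%, 13.1%, 8.52% and 11.6% of all genes had one. The median member had a log2 fold change of 0.32 in KAT2A_KD (82 of 83 positive), 0.24 in KAT2B_KD (75 positive), 0.34 in KAT2AB_KD (82 positive) and 0.08 in NT (59 positive), beside all-gene medians of 0.00, 0.00, 0.02 and 0.00. Other genes under 1000 nt had medians of 0.19, 0.21, 0.27 and 0.24. RPL11 had the lowest fold change, in NT (-0.45 ± 0.26, edgeR adjusted p = 0.549).

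Each knockdown was compared with NT at each stage, to see whether loss of either acetyltransferase moved the genes. These comparisons share the NT libraries of their stage. KAT2A_KD gave 0 calls at all 3 stages, where 0.343%, 0.647% and 1.22% of all genes passed at Subconfluent, Confluent and Differentiated. Its median member had -0.33, -0.12 and -0.17 at these stages, with 0, 15 and 8 of 83 positive, and the unadjusted p was under 0.05 for 2, 0 and 0 members (5.69%, 7.75% and 13.1% of all genes). KAT2B_KD gave 0 calls at all 3 stages (0.0888%, 0.463% and 4.85% of all genes), with medians of -0.04, 0.12 and 0.40, 31, 71 and 82 positive, and an unadjusted p under 0.05 for 0 members at each stage (4.47%, 6.83% and 18.5% of all genes). DESeq2 also made 0 calls in these 6 comparisons. The KAT2B_KD median of 0.40 at the Differentiated stage went with a difference of 0.89 between its 2 libraries. RPL5 had the lowest p there (0.54 ± 0.29, edgeR adjusted p = 0.339).

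Most members had negative log2 fold changes in KAT2AB_KD against NT, and few passed. At the Subconfluent stage 0 rose and 1 fell, where 2.7% of all genes passed (0.838% lower), with a median of -0.46, 1 of 83 positive and an unadjusted p under 0.05 for 9 members (14.7% of all genes). At the Confluent stage 0 passed, where 2.28% of all genes did, with a median of -0.22, an unadjusted p under 0.05 for 1 member (13.1% of all genes) and 0 calls by DESeq2. At the Differentiated stage 0 rose and 2 fell, where 2.74% of all genes passed (1.17% lower), with a median of -0.74, 1 of 83 positive and an unadjusted p under 0.05 for 42 members (15.8% of all genes). DESeq2 called 2, 0 and 8 members at the 3 stages, and the shares of all genes it called are not given here. The median over all genes was 0.00 at each stage, and other genes under 1000 nt had -0.14, -0.10 and -0.13. The libraries of the Differentiated KAT2AB_KD group differed from each other by more (0.98) than the group differed from NT at the median. The one with the lower ribosomal protein level, library 2, was also the one with more KAT2A (6.84 CPM, against 1.98 in library 1) and KAT2B (18.9 CPM, against 5.85 in library 1); their part in the result was not tested.

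RPL36A, an X-linked large-subunit gene near the tRNA exit site of the ribosome, fell in KAT2AB_KD at the Subconfluent stage. It had 112 and 119 CPM in KAT2AB_KD, against 292 and 277 CPM in NT, a log2 fold change of -1.30 ± 0.31 (edgeR adjusted p = 0.0252). In KAT2A_KD it had 140 and 158 CPM (-0.93 ± 0.31, adjusted p = 0.360) and in KAT2B_KD 351 and 180 CPM. At the Differentiated stage it had 217 and 144 CPM in KAT2AB_KD, against 356 and 446 CPM in NT (-1.15 ± 0.31, adjusted p = 0.0486). Both groups were separate at both stages, but neither call held without single libraries. With Subconfluent KAT2AB_KD library 1, KAT2AB_KD library 2, NT library 1 or NT library 2 left out, the adjusted p was 0.219, 0.164, 0.119 and 0.119. At the Differentiated stage these were 0.0721, 0.236, 0.0875 and 0.291, and the call was also lost with RLE factors (0.0516), with TMM without the members (0.0526) and relative to the other members (-0.38, 0.157). Relative to the other members RPL36A had a log2 fold change at the Subconfluent stage of -0.84 (adjusted p = 0.0424; 0.0698% of all genes were lower), the only member called in any comparison of a knockdown with NT on that scale. RPL36AL, its autosomal relative, is close in sequence, and reads of the pair may be split between them.

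RPL11 fell in KAT2AB_KD at the Differentiated stage, with 330 and 216 CPM in KAT2AB_KD against 544 and 562 CPM in NT (-1.02 ± 0.26, edgeR adjusted p = 0.0425). The call was lost without KAT2AB_KD library 2 (0.229), NT library 1 (0.134) or NT library 2 (0.198), and relative to the other members (-0.27, 0.325). RPS2, a small-subunit protein at the mRNA entry, was lowest at that stage without passing (-1.21 ± 0.34, adjusted p = 0.0621), and had -1.09 ± 0.34 at the Subconfluent stage (adjusted p = 0.0961). RPL22L1 had -0.87, -0.84 and -0.99 at the 3 stages in KAT2AB_KD and passed at none (adjusted p = 0.182, 0.229 and 0.129).

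Whether a knockdown changed the response to differentiation was tested as the difference between its Differentiated-against-Confluent change and that of NT. No member passed for any of the 3 knockdowns, by edgeR or DESeq2, where 0.616%, 0.888% and 1.33% of all genes passed for KAT2A_KD, KAT2B_KD and KAT2AB_KD. The median differences were -0.07, 0.28 and -0.51, and the unadjusted p was under 0.05 for 0, 0 and 3 members (9.51%, 11.5% and 12.1% of all genes). RPL11 had the lowest p, for KAT2AB_KD (-1.14 ± 0.37, edgeR adjusted p = 0.160).

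Other genes of the translation machinery were counted from lists chosen with earlier results of these data known. In NT, on differentiation, TPT1 and EEF1G rose by 1.09 (edgeR adjusted p = 0.00848) and 1.17 (0.00183). They belong to a list of 21 translation genes in which as many fell as rose in NT. Over all genes the shares higher and lower on differentiation were 21.4% and 21.7% in KAT2A_KD, 19.3% and 20.3% in KAT2B_KD, 22.6% and 23.6% in KAT2AB_KD, and 24.3% and 26.1% in NT, and no list was tested against them. Of these 21 translation genes 5 rose and 5 fell in KAT2A_KD, 11 and 3 in KAT2B_KD, 1 and 6 in KAT2AB_KD, and 5 and 5 in NT. The counts in KAT2A_KD and NT lay near the background. TPT1 rose in all 4 genotypes, while NPM1, a nucleolar chaperone of ribosome assembly, fell in all 4 (-1.83, -0.94, -2.03 and -1.30 in KAT2A_KD, KAT2B_KD, KAT2AB_KD and NT). Of 11 snoRNA host genes 4 rose and 1 fell in KAT2A_KD, 7 and 1 in KAT2B_KD, 1 and 2 in KAT2AB_KD, and 5 and 1 in NT. The higher counts lay above the background share in KAT2A_KD, KAT2B_KD and NT and below it in KAT2AB_KD. SNHG15 fell in all 4 (-2.17 in NT, adjusted p = 2.17e-05).

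The mitochondrial ribosome translates the mitochondrial genome. Of 80 genes of its proteins 0 rose in any genotype, and 38, 38, 51 and 54 fell in KAT2A_KD, KAT2B_KD, KAT2AB_KD and NT, with medians of -0.71, -0.66, -0.87 and -0.99. The lower share over all genes was 21.7%, 20.3%, 23.6% and 26.1% in the same order. Of 6 chaperones that carry ribosomal proteins to the pre-ribosome 0 rose and 3, 2, 3 and 3 fell in the same order. GRWD1, the chaperone of RPL3, fell by 2.08 in NT on the log2 scale (edgeR adjusted p = 1.02e-06), where RPL3 itself rose by 0.69 (0.0398), a call lost with each of the 4 libraries left out in turn (highest adjusted p 0.221). Of 17 genes of the mTORC1 and LARP1 axis 2 rose and 3 fell in KAT2A_KD, 3 and 4 in KAT2B_KD, 3 and 3 in KAT2AB_KD, and 5 and 3 in NT, shares near or below those over all genes. PDCD4, a translation inhibitor cleared by S6 kinase signalling, rose in all 4 genotypes (2.28 in NT, adjusted p = 5.58e-06), and RPTOR, the mTORC1 scaffold, fell by 0.80 in NT (0.00415).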

How the data were processed

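Polyadenylated RNA was sequenced as single-end reads from directional libraries, per the labels' protocols. The submitters' processing notes name Bowtie2 and featureCounts, besides FastQC and DESeq2, and the genome build hg19, which the authors used before deposit. The versions, the annotation, the strand setting and the treatment of multi-mapping reads are not given in the sources used here. The deposited raw table holds read counts per gene. A second deposited table, used only as a check, holds signal values equal to these counts divided by 1 size factor per library (largest relative deviation 8.96e-07). The count table had 1 column that matched no sample and was not used. Libraries were numbered 1 and 2 within a group in accession order, and these numbers only name them. Whether the sample table's own numbers mark a shared culture or day is not given in the sources used here.

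Counts were analysed with edgeR 4.0.16 in R 4.3.3 (limma 3.58.1): filterByExpr by group, TMM factors (0.666 to 1.22), and 1 quasi-likelihood fit over all 24 libraries and 12 groups, which share the estimate of the spread (12 residual degrees of freedom). The p-values were adjusted (Benjamini-Hochberg) over 15757 genes in each of 20 comparisons. The fit was tested on simulated data with counts drawn independently for each gene. That simulation held no shift shared by the members between libraries, so it cannot show how the fit handles such shifts. Alternatives were RLE factors, TMM without the members, library totals alone, no filter, DESeq2 1.42.0, a replicate block, each library left out, and, chosen after seeing the data, scaling on the members. Ratios of 2 genes were compared over libraries with exact permutation tests (scipy 1.17.1). Transcript lengths are medians over GENCODE 29 transcripts with a RefSeq match, and start sequences come from RefSeq.

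The members and gene lists were chosen with earlier results of these data known. The text names, per comparison, genes among the 5 highest and 5 lowest members and the up to 4 with the lowest p, the paralog pairs, RPL5, RPL11, RPLP0, RPLP1, RPLP2, RPS6, KAT2A and KAT2B, and up to 4 genes per list with the lowest p. RPS27A, RPL3, RPL13A and the members that passed in all 4 genotypes were singled out after their values were seen. Some genes of the lists and of the members are not reported here.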

Additional observations from a re-analysis of the deposited data

Results flagged for a closer look

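RPL7L1 was flagged because KAT2B_KD and NT were ordered in opposite ways at 2 stages. At the Differentiated stage it had 31.8 and 35.4 CPM in KAT2B_KD, both above the 31.4 and 26.0 CPM in NT. At the Confluent stage it had 43.0 and 38.5 CPM in KAT2B_KD, both below the 51.0 and 44.9 CPM in NT. The difference between the 2 log2 fold changes was 0.464 ± 0.289 (SE), and edgeR's test of that difference gave an adjusted p of 0.611, so it did not pass. RPL7L1 was the only one of the 83 members with such an order in these libraries. The share of all genes with such an order is not given here, so this is not a result about RPL7L1. At the Differentiated stage the order rested on the close values of 31.8 and 31.4 CPM. No group had enough libraries for a test of single outlying libraries.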

How the results depend on the processing

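The counts of members called depended on scaling, on the filter and on single libraries, and the cause was not tested. For most of these alternative fits the share of all genes called is not given here. Such counts show how far the calls depend on the processing, and not a trait of the members. On differentiation, library totals alone gave 14 calls in KAT2A_KD, 37 in KAT2AB_KD and 10 in NT, and no filter on low counts gave 18 in KAT2A_KD, 39 in KAT2B_KD, 10 in KAT2AB_KD and 27 in NT. Scaling on the members, chosen after seeing the data, gave 22 in KAT2A_KD and 21 in KAT2AB_KD. For KAT2AB_KD against NT at the Differentiated stage the counts were 1 with RLE factors, 1 with TMM without the members, 8 with library totals alone, 23 with no filter, 8 with DESeq2 and 0 with scaling on the members. At the Subconfluent stage no filter gave 1 call for KAT2A_KD and 3 for KAT2AB_KD, and DESeq2 gave 2 for KAT2AB_KD. No filter also gave 1 call for KAT2AB_KD at the Confluent stage and 1 for the difference between KAT2AB_KD and NT on differentiation. RPS6 in KAT2B_KD on differentiation changed sign with scaling on the members, to -0.50 (edgeR adjusted p = 0.00536), against 0.12 with TMM, where that scaling moved the median of all genes by -0.52. With 1 library left out, the counts on differentiation ran from 2 to 13 in KAT2A_KD, 2 to 41 in KAT2B_KD, 5 to 26 in KAT2AB_KD and 3 to 13 in NT. For KAT2AB_KD against NT they were 0 at the Subconfluent stage and ran from 0 to 1 at the Differentiated stage, and all other counts were 0. The sample table numbers the libraries of a group 2 and 3. Libraries of the same number deviated together with a median r of 0.15 over 66 pairs of groups, over 0.1 in 39 of them. The values ran from -0.34 to 0.51, and a shared effect of the number was not tested. The labels do not say what the numbers mark, and the main fit did not use them as pairing. A fit with this replicate block gave 8 calls in KAT2AB_KD on differentiation and left the other counts within 1.5 times. Of the alternative values for single genes and medians, 1035 kept their direction and call or stayed within the spread, 162 no longer passed, 47 passed anew and 1 called value reversed. Another 59 values that passed in neither fit changed sign, and 17 medians moved by more than the spread between libraries. The lowest member total was 12482 counts over the 24 libraries, and with 2 libraries a group the precision was limited by the spread between them.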
